A study of Mus musculus with 4 samples.

Results

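The genes described here are 8 genes named for Schwann cells and myelin: *Mbp*, *Sox10*, *Pmp22*, *Cnp*, *Cdh19*, *S100b*, *Ncam1* and *Ngfr*. They were chosen by name from the deposited table of 21462 genes, with their levels in control and *Tet3* mutant libraries already known, so the comparison of these genes between genotypes is a description without a test. Rows matching the names gave values for 7 of the 8 genes, and 6 of these had a mean of at least 10 normalized counts over the 4 libraries. *S100b* lay below that minimum, and *Sox10* was not analysed here.

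RNA was sequenced from smooth muscle cells (SMCs) of C57BL/6 mouse lungs, sorted as living cells that carried the red fluorescent reporter tdTomato. Mutant cells came from mice with floxed *Tet3* alleles (*Tet3* fl/fl), a tdTomato reporter at the *ROSA26* locus and a tamoxifen-inducible Cre recombinase under the alpha smooth muscle actin promoter, so that any cell using that promoter could be recombined and labelled. By the study's methods, control mice lacked the floxed allele and carried the Cre allele, the reporter or both, blood cells were depleted with beads before sorting, and tamoxifen was given to adult mice; the age at sorting was not given in the sources used here. There were 2 mutant and 2 control libraries. By the study each group was 2 independent animals, and the labels do not give their sex.

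Schwann cells wrap the axons of peripheral nerves. Myelinating Schwann cells stack their membrane into compact myelin, whose proteins include the tetraspan protein PMP22 and the cytoplasmic protein MBP, while CNP stays in the cytoplasmic channels outside the compact layers. Immature and non-myelinating Schwann cells keep NCAM1 and the neurotrophin receptor NGFR. S100B is used as a marker of Schwann cells, and the transcription factor SOX10 is needed at every step of the lineage. In the lung such cells lie along the nerves that run beside airways and vessels. Several of these genes are also used elsewhere: *Pmp22* and *Cnp* are transcribed in many tissues, and the *Mbp* locus also encodes the golli proteins of immune and other cells.

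Deposited totals were between 6805272 and 7164573 normalized counts per library. *Tet3*, the targeted gene, had 1847 and 1926 normalized counts for the controls against 1534 and 1444 for the mutants. Control replicate 2 stood apart: it had 2 normalized counts of *Xist* against 5214 to 6781 in the other libraries, and it was the only library with reads of the Y-linked gene *Ddx3y*. By these 2 genes control replicate 2 was male and the other libraries were female. Sex was therefore not balanced between the genotypes, and its part in the values was not tested. Control replicate 2 was the highest library in 33.8% of the 16659 genes tested and the lowest in 34.0%. Markers of alveolar type 2 epithelial cells were also most abundant in that library. Across all genes tested, 0 genes (0%) had an adjusted p under 0.05 (limma, Benjamini-Hochberg adjustment), and 1112 (6.68%) had an unadjusted p under 0.05. The mutants lay above both controls in 19.6% of genes and below both in 19.5%.

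The levels of the genes differed widely. Per kilobase of exon, averaged over the 4 libraries, *Pmp22* had 485 normalized counts, followed by *Cnp* (98.4), *Mbp* (67.1), *Ncam1* (16.3), *Ngfr* (13.1), *S100b* (5.73) and *Cdh19* (2.86). The median of 14060 tested protein-coding genes was 65.9 on this scale. *Pmp22* was therefore above 99.1% of those genes, *Cnp* above 65.5% and *Mbp* above 50.7%, whereas *S100b* and *Cdh19* were above 4.73% and 1.52%. The ranges over libraries separated *Pmp22* from *Cnp* and *Mbp* from *Ncam1*. They overlapped between *Cnp* and *Mbp*, between *Ncam1* and *Ngfr*, between *Ngfr* and *S100b* and between *S100b* and *Cdh19*. In each library *Ngfr* was above *S100b* and *S100b* above *Cdh19*, though *S100b* and *Cdh19* had few reads. The order of *Cnp* and *Mbp*, and of *Ncam1* and *Ngfr*, changed between libraries and is not settled. The plot of levels per exon length shows these 3 tiers.

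**Figure D1:**
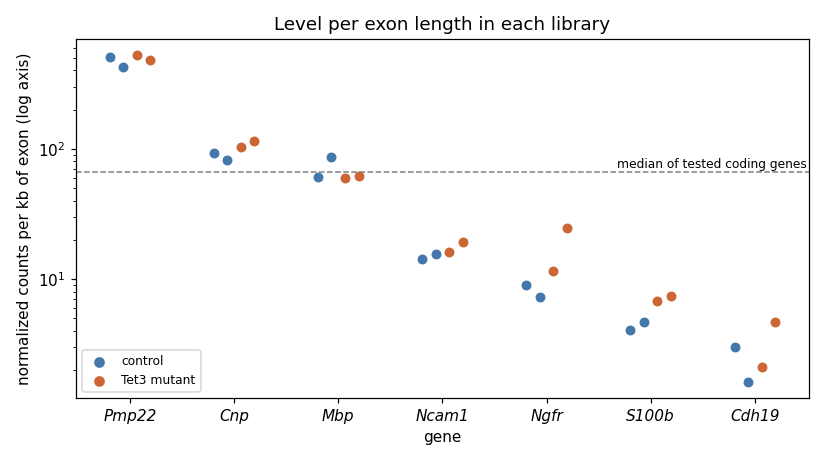
Level of each gene per kilobase of annotated exon (log axis) in 2 control (blue) and 2 *Tet3* mutant (orange) libraries; the dashed line is the median of 14060 tested protein-coding genes, 65.9. *Pmp22* stands alone at the top, *Cnp* and *Mbp* lie near the dashed line, and the other 4 genes lie below it.

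Levels of other genes tied to Schwann cells ran from the lower limit of the data to high values. Of 35 such genes with values, on 5 lists described below, 9 had a mean under 20 and 19 a mean of at least 100. Among 6 genes set as defining, 4 were well above the limit: *Scn7a* had 2760 to 3790 normalized counts, *Erbb3* 250 to 1401, *L1cam* 221 to 331 and *Egr2* 120 to 185. The other 2 were not. The astrocyte and non-myelinating Schwann cell filament gene *Gfap* had 5 and 2 normalized counts for the controls against 1 and 0 for the mutants, and the fatty acid binding protein gene *Fabp7* had 0 and 5 for the controls against 5 and 5 for the mutants, where values of up to 3 are not distinguished from 0 by counting error. *Mag*, which encodes the myelin-associated glycoprotein, had 14 to 18 in all libraries. For comparison, the smooth muscle myosin gene *Myh11* had 1330 to 2473 normalized counts and the fibroblast receptor gene *Pdgfra* 4449 to 5123. *S100b* and *Cdh19* were near the lower limit, as *Gfap*, *Fabp7* and *Mag* were, whereas *Pmp22*, *Cnp* and *Mbp* were abundant, and several of the abundant genes are also used by other lung cells. In bulk RNA, fewer cells of a type and less RNA per cell cannot be told apart.

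*Pmp22* (ENSMUSG00000018217, GRCm38 chromosome 11, 63128982 to 63159547, plus strand) encodes the peripheral myelin protein whose gene dosage sets the health of peripheral myelin. Its normalized counts were 1195 and 995 for the controls (replicates 1 and 2) against 1233 and 1140 for the mutants, an order kept for every gene below. The groups overlapped, since mutant replicate 2 lay below control replicate 1. The means were 1095 ± 141 and 1186.5 ± 65.8 (SD, n = 2 each), and the log2 fold change was 0.12 (standard error 0.13). Without control replicate 2 the value was -0.011, so its direction rested on that library.

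The *Pmp22* gene has several start sites, and a count per gene does not tell them apart. The upstream start is known for its use in myelinating Schwann cells and the downstream ones for their use in other tissues. TET3 acts on methylated cytosine, which in most mouse cells sits in CG dinucleotides. The bases just before 2 of the *Pmp22* starts are therefore shown with that of *S100b*, a gene near the lower end of the levels. Methylation was not measured in these RNA data. In highly expressed contractile genes, the study found the TET3 product hydroxymethylcytosine reduced within the genes but not at promoters. Sequences are the 250 bases before a RefSeq start on GRCm38.p6, plus strand, 5′ to 3′, with CG dinucleotides in capitals. The first *Pmp22* window is chr11:63128732-63128981, the second chr11:63131207-63131456, and that of *S100b* is chr10:76253586-76253835.
Pmp22 upstream start: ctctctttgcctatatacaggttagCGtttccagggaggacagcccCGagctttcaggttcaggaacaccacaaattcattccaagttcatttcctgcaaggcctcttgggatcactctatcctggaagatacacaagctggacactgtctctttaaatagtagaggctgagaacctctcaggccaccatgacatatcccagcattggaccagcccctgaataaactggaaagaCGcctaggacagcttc
Pmp22 first downstream start: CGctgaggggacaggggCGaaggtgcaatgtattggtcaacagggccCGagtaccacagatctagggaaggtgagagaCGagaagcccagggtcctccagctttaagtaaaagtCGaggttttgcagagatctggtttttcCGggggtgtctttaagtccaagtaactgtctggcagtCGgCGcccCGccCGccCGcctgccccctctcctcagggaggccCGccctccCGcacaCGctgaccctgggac
S100b start: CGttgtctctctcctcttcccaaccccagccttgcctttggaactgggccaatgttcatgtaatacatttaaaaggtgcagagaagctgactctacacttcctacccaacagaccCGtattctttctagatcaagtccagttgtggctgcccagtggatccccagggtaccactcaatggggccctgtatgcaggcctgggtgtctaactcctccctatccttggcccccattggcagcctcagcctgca

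The upstream *Pmp22* window held 3 CG dinucleotides and the *S100b* window 2, against a median of 6 in 32851 promoter windows of the same length. The downstream *Pmp22* window shown held 14, more than 70.6% of all windows. The other 2 downstream *Pmp22* windows held 14 and 27, the last more than 91.4% of all windows. The letters ACAAAG or ACAATG on either strand, core sequences of SOX factor motifs, were in 25.2% of all windows. Of the 7 windows examined for 4 of the genes, 1 held such a match, the ACAAAG before the *Cnp* start. *Mbp*, on chromosome 18, was left out of the windows examined. A match of letters is a description of the window and says nothing about binding.

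*Cnp* (ENSMUSG00000006782, chromosome 11, 100574904 to 100591729) encodes the cyclic nucleotide phosphodiesterase of non-compact myelin. It had 339 and 299 normalized counts for the controls against 378 and 417 for the mutants. Both mutants lay above both controls, as they did in 19.6% of all genes tested. The means were 319 ± 28.3 and 397.5 ± 27.6 (SD, n = 2 each), and the log2 fold change was 0.32 (standard error 0.14). When 1 library was left out the value stayed between 0.23 and 0.41. Of its annotated exon bases, 4.23% also lie in exons of another gene, and whether reads there were counted depends on the strand setting, which was not given.

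The values of *Mbp* (ENSMUSG00000041607, chromosome 18, 82475146 to 82585637) went the other way in the means. The gene encodes the basic protein that zips together the cytoplasmic faces of the myelin membrane, and 16 transcripts are annotated for it. It had 517 and 728 normalized counts for the controls against 503 and 524 for the mutants. Of the 4 libraries, 3 lay within 21 normalized counts of each other, and control replicate 2 stood above them. The means were 622.5 ± 149 and 513.5 ± 14.8 (SD, n = 2 each), and the log2 fold change was -0.26 (standard error 0.19). Without control replicate 2 it was -0.01, and without control replicate 1 it was -0.50.

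*Ncam1* (ENSMUSG00000039542, chromosome 9, 49502136 to 49798925) encodes the neural cell adhesion molecule, which is also found on neurons and neuroendocrine cells. It had 123 and 134 normalized counts for the controls against 140 and 168 for the mutants. The groups did not overlap, but the mutant replicate 1 value was nearer to control replicate 2 than to mutant replicate 2. The means were 128.5 ± 7.78 and 154 ± 19.8 (SD, n = 2 each), the log2 fold change was 0.25 (standard error 0.20), and leaving out 1 library moved it between 0.12 and 0.39. The sum of 5 neuroendocrine markers was 15 and 96 for the controls against 35 and 37 for the mutants, and that of 9 neuron markers 236 and 292 against 349 and 369. Much of the neuron sum came from *Stmn2*, with 159 and 142 for the controls against 226 and 240 for the mutants. The mutants lay above both controls in 2 of the 4 tested neuron markers, whereas *Ret* was highest in control replicate 2. The part of neurons and neuroendocrine cells in the values of *Ncam1* was not tested. Of the annotated exon bases of *Ncam1*, 4.81% also lie in exons of other genes, with the same uncertainty as for *Cnp*.

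*Ngfr* (ENSMUSG00000000120, chromosome 11, 95568818 to 95587735, minus strand) encodes the low-affinity neurotrophin receptor p75 and had the widest range of the genes followed. It had 31 and 25 normalized counts for the controls against 40 and 85 for the mutants, so the highest library held 3.40 times the lowest. Both mutants lay above both controls, but the mutants differed from each other by more than mutant replicate 1 did from either control. The means were 28 ± 4.24 and 62.5 ± 31.8 (SD, n = 2 each). The log2 fold change was 1.04 (standard error 0.46), 0.51 without mutant replicate 2 and 1.58 without mutant replicate 1.

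*Cdh19* and *S100b* had few reads. *Cdh19* (ENSMUSG00000047216, chromosome 1, 110888326 to 110977584), a cadherin typical of Schwann cells and their precursors, had 13 and 7 normalized counts for the controls against 9 and 20 for the mutants. The groups overlapped, and the log2 fold change of 0.45 (standard error 0.61) became -0.08 without mutant replicate 2. *S100b* (ENSMUSG00000033208, chromosome 10, 76253853 to 76261159), which encodes a calcium-binding protein used as a Schwann cell marker, had 6 and 7 for the controls against 10 and 11 for the mutants. Its mutants lay above its controls, at a log2 fold change of 0.62. Summed over 2 libraries and treated as read counts, *S100b* had 13 in controls (exact Poisson 95% interval 6.92 to 22.2) and 21 in mutants (13 to 32.1). For *Cdh19* the sums were 20 (12.2 to 30.9) and 29 (19.4 to 41.6). These intervals cover counting error only and overlap for both genes. Such overlap is not a test, and a difference between the groups was not tested.

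**Figure D2:**
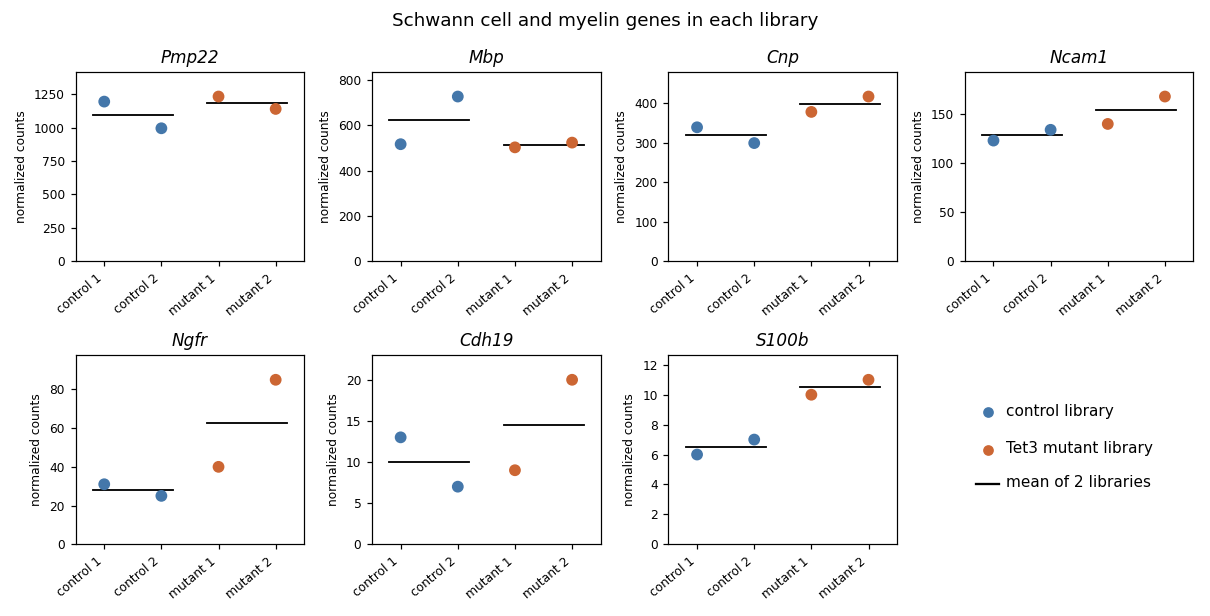
Normalized counts of the 7 genes in each library, with each vertical axis starting at 0; points are libraries (blue, control; orange, *Tet3* mutant) and bars are means of 2 libraries. The groups overlap for *Pmp22*, *Mbp* and *Cdh19* and do not overlap for *Cnp*, *Ncam1*, *Ngfr* and *S100b*.

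Among the 6 genes above the minimum, 5 had a log2 fold change above 0, against 49.0% of all genes tested, and the median was 0.29, against -0.01 over all genes. The genes were chosen with these values known, and nothing is read from the counts. In 3 of the 6 (*Cnp*, *Ncam1* and *Ngfr*) the mutants lay above both controls, beside 19.6% of all genes, and in none did they lie below both. Leaving out 1 library moved the median between 0.14, without control replicate 2, and 0.39, without mutant replicate 1, and it was 0.15 without mutant replicate 2. Mutant replicate 2 was the highest library for *Cnp*, *Cdh19*, *S100b*, *Ncam1* and *Ngfr*, as it was for 22.4% of all genes tested. In the same library the summed level of 8 macrophage markers was highest too, at 7086 normalized counts. It was 5807 and 5257 in controls and 6088 in mutant replicate 1. Among these markers *Marco* was highest in control replicate 1 and *Lyz2* in control replicate 2. The sums of T and natural killer cell markers (790) and of neuron markers (369) were also highest in mutant replicate 2. Those of the other cell types were not. Single markers differed: *Cd3e*, *Cd3d*, *Cd3g* and *Cd8a* were highest in mutant replicate 1, and *Ncr1* and *Klrb1c* in control replicate 1. Of the neuron markers, *Syt1* was highest in mutant replicate 1 and *Ret* in control replicate 2. The part of any of these cells in the values was not tested.

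The genes did not share 1 pattern. After centring log2(value + 1) on its mean over the 4 libraries, the closest pairs were *Ncam1* with *Cnp*, with a root mean square difference of 0.12, and *Cnp* with *Pmp22* (0.14). *Ngfr* and *Mbp* were farthest apart (0.79). The mean pattern of the 6 genes was -0.08 and -0.24 for the controls against -0.05 and 0.37 for the mutants. Among 12055 other genes averaging 50 or more, leaving out mitochondrial genes and symbols that are clone names or identifiers, the nearest to it were *Alox5ap*, *Ech1*, *Zswim1*, *Gmds* and *Kif11*, with root mean square differences of 0.020 to 0.033. *Alox5ap*, which encodes the activating protein of 5-lipoxygenase, had 329 and 296 normalized counts for the controls against 348 and 448 for the mutants. With 4 libraries, such nearness only says that the order and spacing of the libraries were alike. The 6 genes themselves lay farther from their mean pattern, at 0.097 (*Cnp*) to 0.43 (*Ngfr*).

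Other genes of the Schwann cell programme were then examined in the same fit, on 5 lists of 45 genes that do not include the 8 above. Values were obtained for 35 of them, 30 were tested and the other 10 were not analysed here. Of the 30 genes, 0 passed an adjusted p of 0.05 (limma, Benjamini-Hochberg adjustment, against 0% of all genes), and 2 had an unadjusted p under 0.05, both higher in the mutants, which is 6.67% against 6.68% of all genes. The mutants lay above both controls in 7 genes (23.3%) and below both in 3 (10%), beside 19.6% and 19.5% of all genes. A log2 fold change above 0 was seen in 17 of the 30, against 49.0% of all genes, and the median of all 30 was 0.12. Without mutant replicate 1 this median was -0.0098, and without control replicate 2 it was 0.026. Without control replicate 1 the number at an unadjusted p under 0.05 was 10, beside 3366 of all 16659 genes in that fit, and without mutant replicate 1 it was 0, beside 273 of all genes, where the lone library of a group was assumed to vary like the others.

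Regulators of the lineage had a median log2 fold change of -0.08, with 3 of 8 tested genes above 0 and 0 at an unadjusted p under 0.05. *Erbb3*, the receptor through which axonal neuregulin drives Schwann cell growth and which epithelia also use, had 459 and 1401 normalized counts for the controls against 250 and 417 for the mutants. Both mutants lay below both controls, at a log2 fold change of -1.31 (standard error 0.57; limma, adjusted p = 0.681), and without control replicate 2 the value was -0.51. *Egr2*, the master regulator of myelination and an immediate early gene in other cells, had 169 and 181 for the controls against 185 and 120 for the mutants. Among the abundant regulators, *Zeb2* had 4244 and 3399 for the controls against 4717 and 3781 for the mutants, and *Jun*, which directs the repair state of Schwann cells, had 1697 and 2086 for the controls against 1865 and 1590 for the mutants. *Adgrg6*, an adhesion receptor required for myelination, had 2499 and 1497 for the controls against 1867 and 1902 for the mutants. The groups overlapped for all 4 of these.

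Compact myelin genes had the lowest median of the 5 lists, -1.23, with 0 of 3 tested genes above 0. None had an unadjusted p under 0.05. *Mal*, a raft proteolipid of myelin and of epithelia, had 234 and 632 for the controls against 104 and 257 for the mutants, and the gap junction gene *Gjb1* had 19 and 62 for the controls against 2 and 16 for the mutants. Both mutants lay below both controls for *Gjb1*, at a log2 fold change of -2.31 (standard error 1.03; limma, adjusted p = 0.681), which was -1.49 without control replicate 2 and -1.06 without mutant replicate 1. *Cd9*, a tetraspanin of many cell types, had 611 and 672 for the controls against 595 and 655 for the mutants.

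Among the 5 lists, 6 genes had values well above the others in 1 control library. *Mal*, *Gjb1*, *Erbb3*, *Cadm4*, *Plekhb1* and *Gal3st1* each had their highest value in control replicate 2, by 1.72-fold or more over the next library. They were picked for that height. Of the 30 tested genes on the 5 lists, 10 (33.3%) were highest in control replicate 2, close to the 33.8% of all genes. Without control replicate 2 the log2 fold changes were -0.51 for *Mal* (from -1.23), -0.09 for *Plekhb1* (from -0.60) and -0.23 for *Gal3st1* (from -1.15). Without mutant replicate 1 they were -0.58, -0.27 and -0.42. All 6 alveolar type 2 markers were also highest there, with a sum of 16406 normalized counts against 10770 in control replicate 1 and 7675 and 9761 in mutants 1 and 2. All 6 of those markers also had a log2 fold change below 0, with a median of -0.57. The part of epithelial RNA in these values was not tested. The plot of values relative to the gene mean shows both sets side by side.

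**Figure D3:**
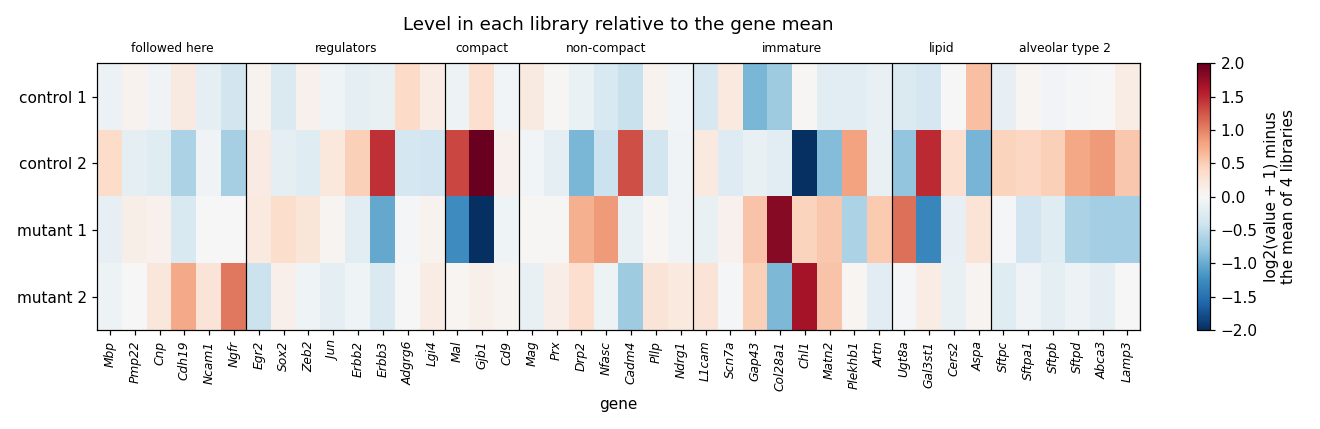
Level of each tested gene in each library, as log2(value + 1) minus the gene's mean over 4 libraries, with colours capped at 2 in either direction; columns are the genes followed here, the 5 lists and 6 alveolar type 2 markers. *Erbb3*, *Mal*, *Gjb1*, *Cadm4*, *Plekhb1* and *Gal3st1* are red in control replicate 2, as are the alveolar type 2 markers.

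Genes of non-compact myelin and the node had a median of 0.15, with 5 of 7 tested genes above 0 and 0 at an unadjusted p under 0.05. *Prx*, whose product periaxin organizes the myelin sheath and is also made by lung endothelium, had 1103 and 954 normalized counts for the controls against 1097 and 1181 for the mutants. *Ndrg1* had 593 and 587 for the controls against 591 and 708 for the mutants, and the plasmolipin gene *Pllp* had 131 and 97 for the controls against 128 and 149 for the mutants. The groups overlapped for these 3 genes. *Drp2*, the partner of periaxin, had 30 and 17 for the controls against 55 and 42 for the mutants, at a log2 fold change of 1.05. It was named after its values were seen.

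Genes of immature and non-myelinating Schwann cells had the highest median, 0.61, with 7 of 8 tested genes above 0. In 3 of the 8 the mutants lay above both controls (37.5%, beside 19.6% of all genes). The middle values of the list were those of *Artn* (0.30) and *Col28a1* (0.92). *Col28a1* had 51 and 73 normalized counts for the controls against 299 and 45 for the mutants, so its value rested on mutant replicate 1. *Matn2*, which encodes a matrix protein of nerve and other connective tissue, had 241 and 155 normalized counts for the controls against 411 and 420 for the mutants. Its log2 fold change was 1.10 (standard error 0.24; limma, unadjusted p = 0.00566, adjusted p = 0.681), and it was 0.78 without control replicate 2. *Gap43*, a growth-cone protein gene, had 19 and 33 for the controls against 55 and 51 for the mutants, at 1.05 (standard error 0.39; limma, unadjusted p = 0.0427, adjusted p = 0.681) and 0.67 without control replicate 1. *Scn7a*, which encodes a sodium-sensing channel of glia and of lung mesenchyme, had 3790 and 2760 for the controls against 3511 and 3205 for the mutants. The adhesion molecule gene *L1cam* had 221 and 318 for the controls against 250 and 331 for the mutants. The groups overlapped for both. *Plekhb1* had 417 and 849 for the controls against 311 and 494 for the mutants.

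Myelin lipid synthesis genes had a median of 0.00, with 2 of 4 tested genes above 0 and 0 at an unadjusted p under 0.05. The ceramide synthase gene *Cers2* had 736 and 936 normalized counts for the controls against 661 and 672 for the mutants, and both mutants lay below both controls (log2 fold change -0.32, and -0.14 without control replicate 2). *Gal3st1*, which sulfates galactocerebroside to sulfatide, had 38 and 138 for the controls against 19 and 54 for the mutants. *Aspa*, which frees acetate for lipid synthesis, had 246 and 84 for the controls against 195 and 167 for the mutants. The groups overlapped for the last 2 genes.

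**Figure D4:**
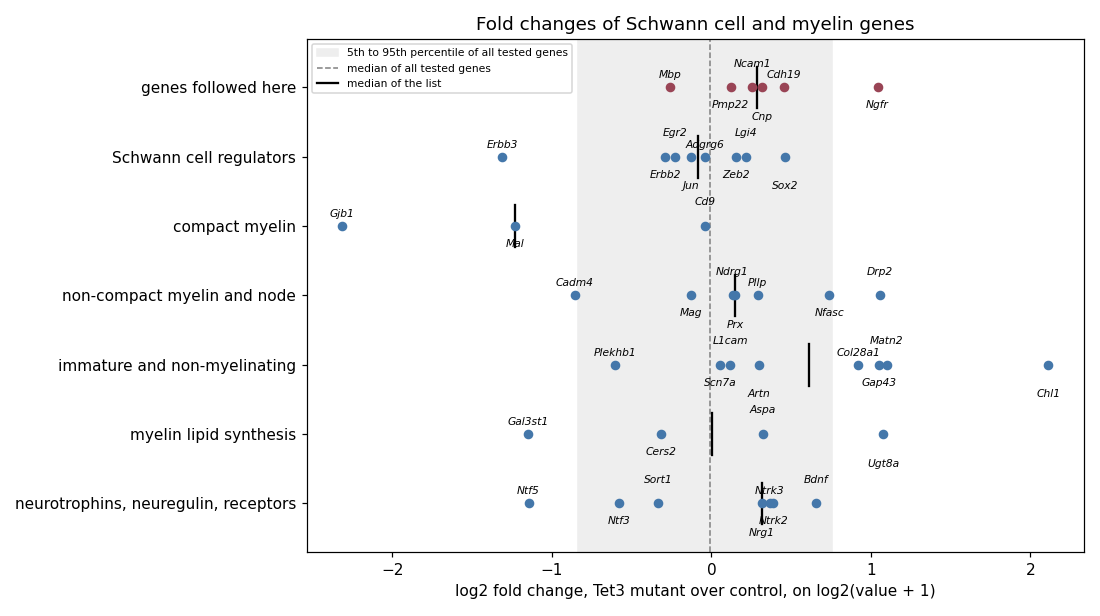
Log2 fold change, *Tet3* mutant over control on log2(value + 1), of the 6 genes followed here and above the minimum, and of 6 lists of related genes; each point is a gene, black bars are list medians, and the grey band spans the 5th to 95th percentile of all tested genes (-0.84 to 0.76). Of the genes followed only *Ngfr* lies outside the band; among the lists *Gjb1*, *Erbb3*, *Mal*, *Gal3st1*, *Ntf5* and *Cadm4* lie below it, and *Chl1*, *Matn2*, *Ugt8a*, *Drp2*, *Gap43* and *Col28a1* above it.

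The ligands and receptors around *Ngfr* and *Erbb3* were followed as a further list of 7 genes, all tested. None passed an adjusted p of 0.05 and 1 (14.3%, against 6.68% of all genes) had an unadjusted p under 0.05 (limma). A log2 fold change above 0 was seen in 4 of 7 (57.1%, against 49.0% of all genes), and the median was 0.32. *Sort1* encodes sortilin, which joins NGFR in binding proneurotrophins, and had 3417 and 3452 normalized counts for the controls against 2600 and 2859 for the mutants. Its log2 fold change was -0.33 (standard error 0.10; limma, unadjusted p = 0.0236, adjusted p = 0.681). The receptor genes *Ntrk2* and *Ntrk3* had fold changes above 0, with 350 and 207 for the controls against 308 and 403 for the mutants for *Ntrk2*, and 188 and 254 for the controls against 298 and 267 for the mutants for *Ntrk3*. The groups overlapped for *Ntrk2* and did not for *Ntrk3* (log2 fold change 0.37, and 0.15 without control replicate 1). The ligand gene *Bdnf* had 20 to 37 normalized counts in any library.

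Per kilobase of exon, close relatives of the genes followed were more abundant than they were in 1 family and scarcer in others. *S100a1* had 319 normalized counts per kilobase of exon, against 5.73 for *S100b*, and *Ncam2* had 0.33, against 16.3 for *Ncam1*. The *Pmp22* relatives *Emp1*, *Emp2* and *Emp3* had 226, 243 and 285 per kilobase, against 485 for *Pmp22*. By mean normalized counts, not scaled for exon length, *Emp1* (1338.8) and *Emp2* (2104.5) were above *Pmp22* (1140.8) and *Emp3* (305.25) was below it. In normalized counts, *Emp1* had 1395 and 932 for the controls against 1668 and 1360 for the mutants, *Emp2* 2072 and 2377 for the controls against 2053 and 1916 for the mutants, and *Emp3* 311 and 270 for the controls against 306 and 334 for the mutants. Of the *Sox10* relatives, *Sox8* had 17 and 16 for the controls against 27 and 29 for the mutants. *Sox9*, a regulator of cartilage and airway epithelium as well as of glia, had 43 and 23 for the controls against 84 and 83 for the mutants, a log2 fold change of 1.38 (standard error 0.39; limma, unadjusted p = 0.0155, adjusted p = 0.681).

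Markers of the other cells that could carry these genes gave the following levels. Of 15 neuron markers, 9 had values, and 4 were tested; *Tubb3*, *Snap25*, *Stmn3*, *Prph* and *Elavl4* had 0 to 10 normalized counts in any library, *Syt1* 12 to 33 and *Ret* 27 to 78. *Uchl1* had 13 and 24 for the controls against 28 and 41 for the mutants, and *Stmn2* had 159 and 142 for the controls against 226 and 240 for the mutants. The 3 melanocyte markers with values had 0 to 34 and the 5 neuroendocrine markers 0 to 31. Oligodendrocyte markers were not analysed here. Sums over 8 fibroblast markers were 17375 and 14647 for the controls against 18153 and 16448 for the mutants, and control replicate 2 was lowest for all 8. It was also lowest for 8 of 8 tested T cell and natural killer cell markers and 4 of 4 neutrophil markers. The same held for 7 of 8 macrophage, 6 of 8 endothelial and 3 of 4 B cell markers. It held for 3 of 3 club and 4 of 5 cardiomyocyte markers, but for only 1 of 10 smooth muscle markers. For pericyte, ciliated and alveolar type 2 markers the counts were 1 of 6, 1 of 6 and 0 of 6. *Pmp22*, *Cnp*, *Cdh19* and *Ngfr* were also lowest in control replicate 2, beside 34.0% of all genes. Sums over 9 T cell and natural killer cell markers were 731 and 212 for the controls against 722 and 790 for the mutants. Smooth muscle markers summed to 5108 and 6747 for the controls against 7952 and 7612 for the mutants. Pericyte markers summed to 2814 to 3695 for the controls and 3536 to 4546 for the mutants, and endothelial markers to 14124 to 14355 and 14821 to 15265. Sums were 121 to 316 and 172 to 306 for B cells, 505 to 617 and 763 to 1280 for neutrophils, 1790 to 2831 and 1430 to 1940 for alveolar type 1 cells, and 1131 to 1341 and 1698 to 1884 for ciliated cells. They were 937 to 1487 and 1200 to 1444 for club cells, 63 to 244 and 72 to 85 for mesothelium, and 295 to 423 and 547 to 630 for cardiomyocytes. The part of any of these cells in the values of the genes followed was not tested.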

How the data were processed

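The authors depleted ribosomal RNA, made stranded total RNA libraries and sequenced them single-end. Per the labels and the study's methods, reads were checked with FastQC, trimmed with Trimmomatic 0.36, aligned with STAR 2.6.0c to mm10 (GRCm38) and counted over exons per gene with featureCounts of Subread 1.6.0, excluding reads in several places or genes. Whether strand was used in counting was not given in the sources used here, so exons overlapped by another gene are uncertain. The deposited values are a score: gene counts scaled between samples with DESeq2 and rounded by the authors. No count test was run on such values, and intervals treat them as read counts.

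Genotype and replicate came from the labels. Genes with a mean of at least 10 were compared on log2(value + 1) by the moderated linear model of limma 3.58.1 (R 4.3.3, eBayes variance trend), two-sided, with Benjamini-Hochberg adjustment over all genes tested. An exact permutation test of 2 against 2 cannot go below 0.333. The script was tested on simulated data. Exon lengths are the union of GENCODE M21 exons, found for 99.9% of tested genes, and promoter windows are from RefSeq on GRCm38.p6. Levels per kilobase assume that all annotated exons are transcribed.

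The genes followed and all lists were chosen with earlier results of these data known. Some genes of the lists are not reported here and are left out of their counts, medians and plots. Named from the lists were 6 defining Schwann cell genes, genes at an unadjusted p under 0.05, the 3 most abundant of each list and the 5 genes nearest in pattern; others were named after their values were seen. Alternatives were a pseudocount of 0.5 or 8, a minimum mean of 1 or 50, equal totals, quantile normalization, no trend, the replicate block and each library left out.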

Additional observations from a re-analysis of the deposited data

How the results depend on the processing

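No gene of the 30 on the 5 lists passed the adjusted threshold under any alternative run. Over all genes, 1 was called without the mean-variance trend and 0 under the other alternatives; the cause was not tested. Of the 30 genes, 2 had an unadjusted p under 0.05; with a mean of at least 50 there was 1, as fewer genes were tested, and the others gave 2 or 3 except the block below. Leaving out 1 library gave 0 to 10 such genes, beside 273 to 3366 of all 16659, a median for the lists from -0.0098 (without mutant replicate 1) to 0.27, and a median for the genes followed from 0.14 to 0.39. Of single genes, *Cdh19* (-0.082 to 0.99) and *Pmp22* (-0.011 to 0.25) reversed when 1 library was left out, the other 4 kept their direction, and all 6 kept it under every other setting that tested them. Of 26 further named genes, 8 changed sign without 1 library (*Egr2*, *Zeb2*, *Jun*, *Adgrg6*, *Cd9*, *L1cam*, *Scn7a* and *Aspa*), and 2 (*Adgrg6* and *Cd9*) under another setting. Equal totals moved the median of all genes from -0.01 to 0.04.

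Groups share replicate numbers, but deviations of same-numbered samples correlated by only 0.13 across genes in 2 pairs, which does not establish a pairing. With the replicate block, 7 of the 30 genes had an unadjusted p under 0.05, beside 1637 of all 16659, and 0 genes were called. At this depth *S100b* and *Cdh19* lie near the lower limit, and their difference between the groups was not tested.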
